A study of Danio rerio with 12 samples.

Results

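The Hox cluster genes were examined in RNA from whole zebrafish larvae of 3 conditions. Members were all genes whose symbol begins with hox, a cluster letter from a to d and a number, and 46 of the 19983 genes in the deposited table met this rule. Larvae carried the Tg(fli:EGFP) transgene, a vessel reporter driven by a fli promoter, and were taken at 120 hours after fertilization. The groups were control larvae, larvae labelled IC, a label left unexplained in the sources that can only match the protocol's iron exposure, and larvae given dextran-coated iron oxide nanoparticles (Dx-IONP). All 3 groups share the transgenic line and the age, and no dose or exposure time was given in the sources used here. Each group was a single pool of 20 embryos made into 1 poly(A) RNA library, so n = 1 per condition, and each was run on 4 sequencing lanes that GEO lists as separate samples.

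Hox genes encode homeodomain transcription factors that set the identity of body regions along the axis from head to tail. They lie in clusters, and the order of the genes in a cluster follows the order of their domains along the body. Paralog groups 1 to 3, here called anterior, act in the hindbrain and in pharyngeal arches. Groups 4 to 8, here called middle, act in the posterior hindbrain and the trunk. Groups 9 to 13, here called posterior, act in the trunk, tail and fins. In larvae much of their expression lies in the hindbrain, the spinal cord, the arches, the fin buds and the gut wall. Zebrafish carry an extra genome duplication, so that many Hox genes exist in a pair of copies with the letters a and b.

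The control library held 84043873 reads, the Dx-IONP library 55381504 and the IC library 48283541. Levels are given as CPM, the reads of a gene scaled to a common library size, after normalization by trimmed mean of M values (TMM), and log2 folds carry a prior count of 2. With 1 library per condition there was no test between conditions. A gene was called higher or lower where its levels differed by 2-fold or more and 1 lay outside the exact 95% interval of the ratio. These intervals cover counting error only, so that no difference below has a replicate check. In bulk RNA, fewer cells of a type and less RNA per cell cannot be told apart.

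Hox transcripts were read in all 3 libraries, with no member at 0 reads in any of them. They made up 0.0769% of all reads in control (95% exact binomial interval 0.0763 to 0.0775), 0.0655% in IC (0.0648 to 0.0662) and 0.0457% in Dx-IONP (0.0451 to 0.0462). On the TMM scale the 46 members summed to 694.3 CPM for control, against 621.9 for IC and 532.5 for Dx-IONP. The split of these reads between zones depends on transcript length and is compared between libraries only. Anterior members took 23.2% of the Hox reads of the control library, 25.7% of those of IC and 25.3% of those of Dx-IONP. Middle members took 41.4%, 35.0% and 37.7% in the same order, and posterior members 35.3%, 39.4% and 37.1%.

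The most deeply read member differed between libraries in the anterior and middle zones. In the anterior zone it was HOXD3 in control (42.6 CPM), hoxc3a in IC (50.5 CPM) and HOXA3 in Dx-IONP (51.3 CPM). HOXD3 and HOXA3 belong to a group that in mouse patterns the pharyngeal arches and the neck, and hoxc3a is a gene that mammals lack. In the middle zone it was HOXB8 in control (78.2 CPM) and in Dx-IONP (35.8 CPM), and in IC the HOXB5 row ENSDARG00000013057 (45.6 CPM), a copy of a gene that in mouse acts in enteric neural crest. In the posterior zone it was HOXB9, a thoracic patterning gene in mouse, in all 3 libraries. Some of these ranks were close. In control HOXA3 and hoxc3a stood at 40.5 and 39.1 CPM, near HOXD3. In Dx-IONP the HOXB5 row ENSDARG00000054030 stood at 35.0 CPM, near HOXB8. Read depth per gene was not divided by transcript length, so these values set no order of expression between genes.

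Counts were low for some members. Of the 46 members 44 reached 1 CPM in at least 1 library and entered the counts below. The other 2 were hoxb1a, a gene of facial motor neuron identity in zebrafish, with 39 reads in Dx-IONP, 26 in control and 5 in IC, and the HOXA11 row ENSDARG00000104162, with 26 reads in Dx-IONP, 12 in control and 13 in IC. Both were highest in Dx-IONP, at 0.82 and 0.55 CPM, and all 5 reads of hoxb1a in IC lay in 1 of the 4 lanes. In all, 7 members had under 100 reads in at least 1 library.

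**Figure D1:**
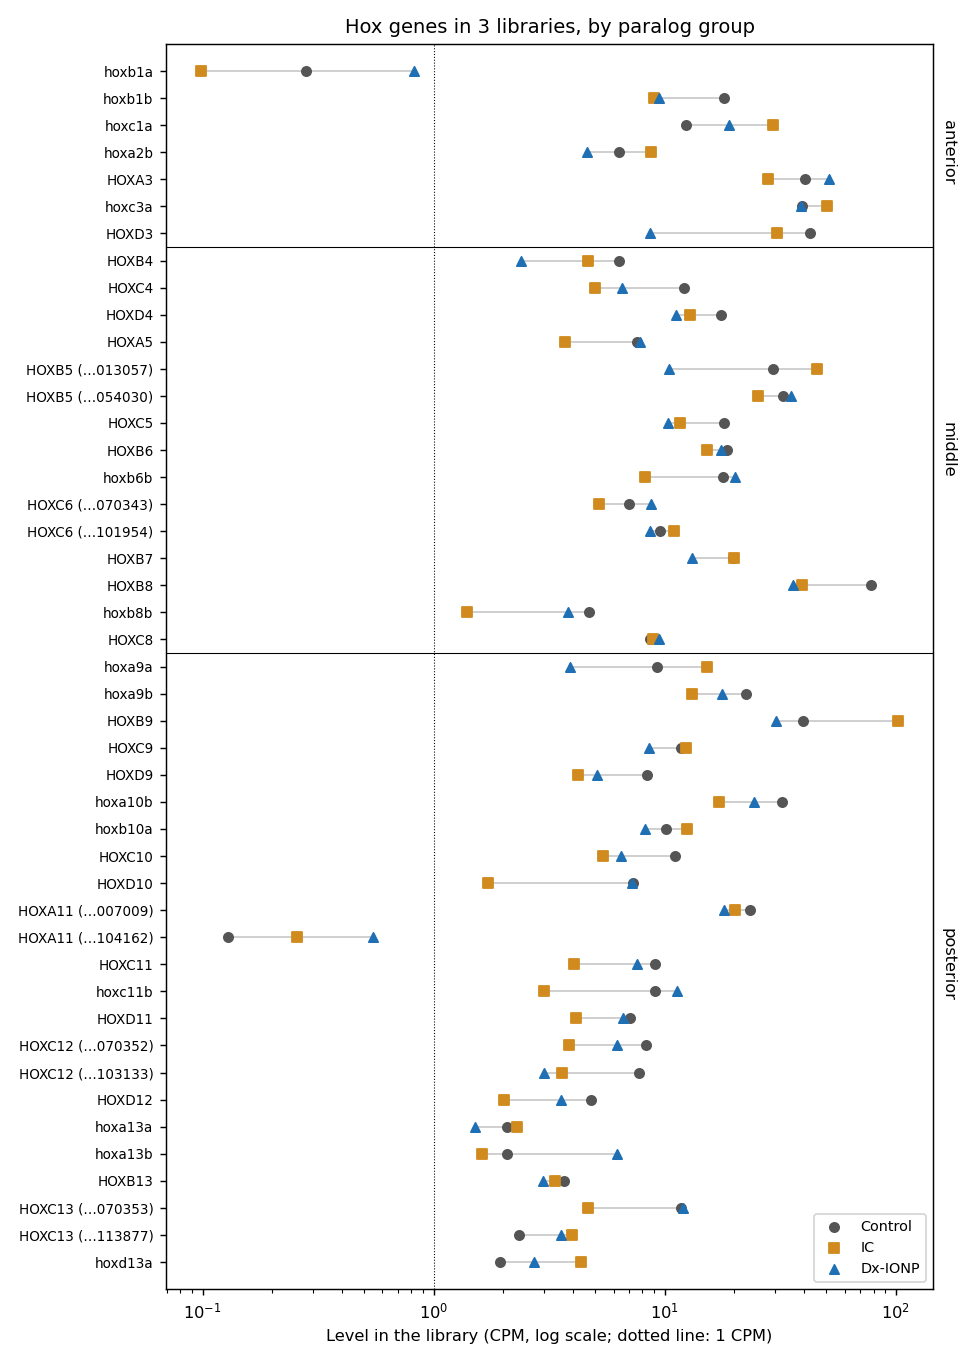
Level of 45 of the 46 Hox members in the 3 libraries, in CPM on a log scale, ordered by paralog group from 1 at the top to 13. Each point is 1 library (n = 1); for symbols shared by 2 rows the end of the gene identifier is given. Only hoxb1a and 1 HOXA11 row lie left of 1 CPM in all 3 libraries.

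The comparison of Dx-IONP with control addressed the axial genes after exposure to dextran-coated particles. Most Hox genes differed little: 37 of the 44 members past the filter were not called, 6 were lower and 1 was higher. That is 15.9% of the members, against 45.1% of the 16807 genes tested (24.2% lower and 20.9% higher). Within the 12900 genes whose highest level lay in the range of the Hox members the share was 44.1%. The median log2 fold of the members was -0.33, against 0.03 over all genes, with 32 members below 0 and 12 above. Their median absolute log2 fold was 0.40, against 0.88 over all genes, and 28 of the 44 lay within 1.5-fold of control. In the same library 12 of 13 replication histone genes, picked by symbol after these values were known, were higher and 1 lower (median 10.40), and their part in the Hox values was not tested.

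The called members were spread over the zones. For all 7 of them the lanes of Dx-IONP and of control did not overlap in CPM, and the same held for the 17 called in IC and the 11 called between Dx-IONP and IC. Lanes are repeat runs of 1 library and the members were picked for a 2-fold difference, so this is no separate evidence. The same share over all called genes was not counted. Lanes also lay apart for members that were not called, such as HOXA3 at 0.34 and hoxa9b at -0.35 in Dx-IONP against control. Lower were 1 of 7 anterior, 3 of 15 middle and 2 of 22 posterior members, and the only one higher was a posterior gene of the last paralog group. Zone medians were close to each other, at -0.20 for anterior, -0.30 for middle and -0.36 for posterior members. Scaled to total reads instead of TMM, the median of all genes moved to -0.35, with 2301 genes higher and 5334 lower in place of 3505 and 4070, and 12 Hox members were lower with still 1 higher. The zone medians were then -0.57, -0.67 and -0.72. HOXD3, HOXB4 and HOXB5 are among 18 rows that share cluster letter and number with a RefSeq gene overlapping another Hox gene, where reads may be shared with a neighbour; which copy a row is was not always known. Without those rows 3 members were lower, and with the reads of the copies of a gene summed, 3 were lower and 0 higher. The share called over all genes was 45.1% under both settings.

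HOXD3 was the anterior member farthest from control. The control lanes held 1039, 949, 1069 and 907 of its reads, those of IC 436, 373, 358 and 394, and those of Dx-IONP 105, 80, 111 and 113. At 8.61 CPM in Dx-IONP against 42.6 in control its log2 fold was -2.30 (counting interval -2.46 to -2.16), and no lane of Dx-IONP came near a lane of the other libraries. Its relatives of paralog group 3 did not share this: HOXA3 stood at 51.3 CPM against 40.5 (log2 fold 0.34, and -0.03 when scaled to total reads) and hoxc3a at 38.8 against 39.1 (-0.01). The RefSeq spans of the A3 and C3 genes also overlap other Hox genes. The hoxc3a lanes of Dx-IONP were uneven, at 33.3 to 44.4 CPM. The neighbouring HOXD4, whose RefSeq span overlaps that of the D3 gene, was at -0.65 and was not called. Among the others of the anterior zone, hoxb1b, an early organizer of hindbrain segments in zebrafish, was just outside the rule at -0.93 (9.48 CPM against 18.03). The arch gene hoxa2b was at -0.46 and hoxc1a, which mammals lack, at 0.62.

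In the middle zone the lower members were all of the B cluster, which held 8 of the 15 middle members past the filter. The HOXB5 row ENSDARG00000013057 held 719, 685, 673 and 658 reads in the control lanes and 113, 126, 127 and 130 in those of Dx-IONP, which gave 29.4 and 10.4 CPM and a log2 fold of -1.49 (-1.63 to -1.35). HOXB4, a gene of the posterior hindbrain and of blood stem cells in mouse, stood at 2.38 CPM against 6.34 (-1.40, -1.72 to -1.12). HOXB8, which in mouse marks dorsal spinal cord and a microglial lineage, held 434, 393, 395 and 480 reads per lane in Dx-IONP and 1834, 1725, 1808 and 1911 in control. Its log2 fold of -1.12 (-1.20 to -1.05) was the smallest among the called members. For each of these genes the lanes of Dx-IONP lay below all lanes of control, which is no separate evidence. The remaining 12 middle members ranged from -0.88 in HOXC4 to 0.32 in the HOXC6 row ENSDARG00000070343.

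Posterior members were for the most part near control. The lower ones were hoxa9a, which belongs to a group active in the pectoral fin bud of zebrafish, at 3.90 CPM against 9.25 (log2 fold -1.24, -1.48 to -1.02), and the HOXC12 row ENSDARG00000103133 at 2.99 against 7.70 (-1.36, -1.64 to -1.10). The higher one was hoxa13b, a gene that shapes the distal paired fins of zebrafish. Its lanes held 75, 73, 84 and 63 reads in Dx-IONP, 40, 50, 48 and 56 in control and 23, 20, 19 and 20 in IC. At 6.21 CPM against 2.08 its log2 fold was 1.56 (1.31 to 1.84), and every lane of Dx-IONP lay above every lane of the others. The further fin genes of paralog group 13 were not called, with hoxa13a at -0.44 (1.52 CPM against 2.07) and hoxd13a at 0.48 (2.72 against 1.94). HOXD10, a lumbar motor neuron gene in mouse, stood at 7.20 CPM against 7.27 (-0.01), and all 5 members of group 9 had log2 folds below 0.

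**Figure D2:**
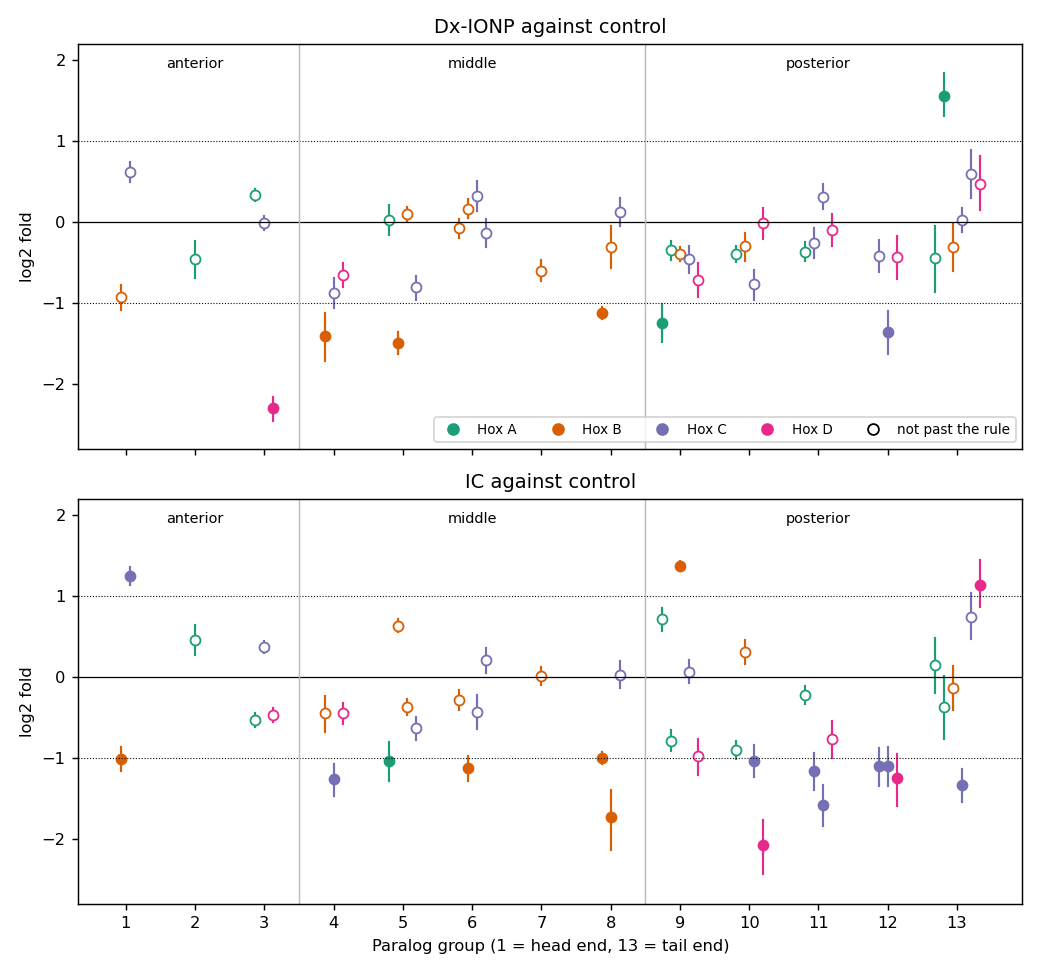
Log2 fold of 43 of the 44 Hox members past the filter against control, by paralog group, for Dx-IONP (top) and IC (bottom). Colour gives the cluster letter, filled points are called, vertical lines are exact 95% counting intervals and dotted lines mark 2-fold; 7 points are filled in the top panel and 17 in the bottom panel, 8 of these among the lower posterior members.

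IC against control addressed the same genes after the exposure taken to be iron. More Hox genes were apart here, and most of these were lower: 14 of 44 members were lower and 3 higher. The share called was 38.6%, against 29.2% of all genes tested, and the share lower was 31.8%, against 15.1%. The median log2 fold was -0.45, against -0.0011 over all genes. In the same library cytosolic ribosomal protein genes, picked by symbol after these values were known, counted 59 lower and 0 higher of 67, with a median of -1.84. Their part in the Hox values was not tested.

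The zones differed in their medians in IC. Of 22 posterior members 8 were lower and 2 higher, with a median log2 fold of -0.77. Of 15 middle members 5 were lower and 0 higher, with a median of -0.45. Of 7 anterior members 1 was lower and 1 higher, with a median of 0.37, which became -0.45 when paralog group 4 was counted as anterior and -0.47 among members with at least 10 CPM. No test of a difference between zones was made, and the anterior median rests on few genes. Summed levels did not follow the medians. The 23 posterior members summed to 244.9 CPM in IC against 245.2 in control, with HOXB9 alone at 102.2 against 39.5. Middle members summed to 217.4 CPM against 287.7, and anterior members to 159.6 against 161.4.

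The lower posterior members belonged to the C and D clusters, with 6 of 8 posterior C members and 2 of 5 posterior D members called lower. HOXD10 was farthest from control. Its lanes held 159, 145, 174 and 199 reads in control and 19, 24, 22 and 22 in IC, or 7.27 and 1.71 CPM, a log2 fold of -2.07 (-2.43 to -1.76). The copy hoxc11b stood at 3.01 CPM against 9.04 (-1.58, -1.84 to -1.34) and its partner HOXC11 at 4.03 against 9.04 (-1.16, -1.39 to -0.94). The HOXC13 row ENSDARG00000070353, one copy of a gene that acts in hair and nail in mouse, was at 4.66 against 11.8 (-1.33, -1.55 to -1.14). Both HOXC12 rows were at -1.10, HOXC10 at -1.03 and HOXD12 at -1.25. For HOXD12 the IC lanes were uneven, with 15, 25, 42 and 20 reads. At 1.18 to 3.26 CPM they still lay below the control lanes, at 4.62 to 5.21 CPM.

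Among middle members hoxb8b was lowest, with 71 reads and 1.40 CPM in IC against 4.72 CPM in control (log2 fold -1.73, -2.14 to -1.39). HOXC4 was at -1.26, hoxb6b at -1.12, HOXA5, a lung patterning gene in mouse, at -1.03, and HOXB8 stood at 39.1 CPM against 78.2. In the anterior zone hoxb1b was lower at -1.01, with 8.95 CPM against 18.03. Several of these calls lay at the limit of the rule, and HOXD9 at -0.97 and hoxa10b at -0.90 were just outside it. Leaving out 1 lane from every library took HOXB8 to -0.99 (lane 1 or 4), hoxb1b to -0.96 (lane 4), HOXA5 to -0.97 (lane 1) or -0.99 (lane 4), HOXC10 to -0.93 (lane 3) and the HOXC12 row ENSDARG00000103133 to -0.99 (lane 3). With size factors of DESeq2 hoxb1b was at -0.98 and HOXB8 at -0.97. HOXB8 and that HOXC12 row were the 2 members lower in both Dx-IONP and IC, comparisons that share the control library.

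Higher in IC were members of 3 clusters. HOXB9 held 1316, 1252, 1336 and 1292 reads in the IC lanes, 977, 899, 907 and 894 in control and 372, 364, 350 and 345 in Dx-IONP. At 102.2 CPM against 39.5 in control its log2 fold was 1.37 (1.31 to 1.43). The anterior gene hoxc1a stood at 29.5 CPM against 12.4 (1.25, 1.14 to 1.36). At the tail end hoxd13a stood at 4.33 CPM against 1.94 (1.14, 0.86 to 1.45), from 220 and 181 reads, and was at 0.99 without lane 4. Past the filter, no other member of paralog groups 1, 9 and 13 was called higher in IC. In group 9, hoxa9a was at 0.71 (0.57 to 0.86), HOXC9 at 0.07, hoxa9b at -0.78 and HOXD9 at -0.97. Of the 6 members of group 13, 3 had log2 folds above 0 and 3 below, with the HOXC13 row ENSDARG00000113877 at 0.75. In group 1 hoxb1b was at -1.01. Members that were near control in IC included HOXB7 at 0.01 and HOXC8 at 0.03.

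**Figure D3:**
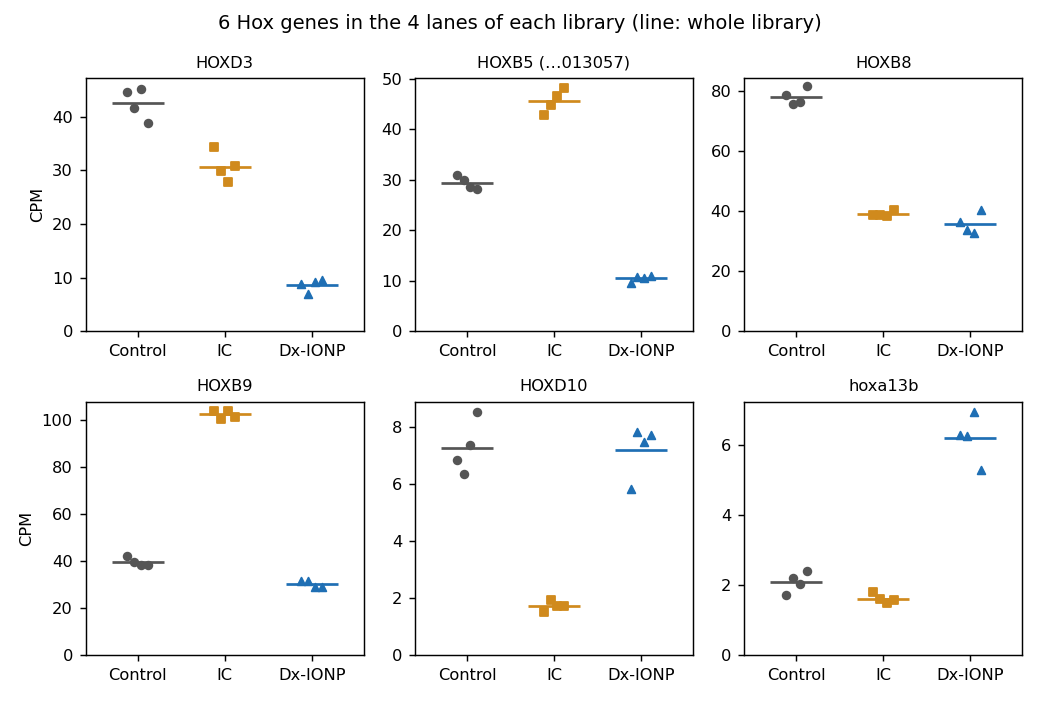
CPM of 6 Hox genes in each of the 4 lanes of the 3 libraries, with a line at the value of the whole library; each axis starts at 0. Lanes are repeat runs of 1 library and show counting and run noise only. HOXD3, HOXB5 (ENSDARG00000013057) and hoxa13b stand apart in Dx-IONP, HOXB9 and HOXD10 in IC, and HOXB8 is highest in control.

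Dx-IONP was set against IC to contrast the coated particles with the exposure taken to be iron. Here 7 of 44 Hox members were higher in Dx-IONP and 4 lower, or 25%, against 50.6% of all genes. The median log2 fold was -0.02, with 22 members on either side of 0. By zone the medians were -0.63 for anterior, 0.09 for middle and 0.26 for posterior members. Scaled to total reads, the balance turned, with 5 Hox members higher and 6 lower. All genes then split into 2936 higher and 5411 lower in place of 4046 and 4455, and the zone medians were -0.93, -0.20 and -0.03.

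Of the 7 higher members 6 were among the 14 called lower in IC against control. Both comparisons share the IC library, so a low value there enters both. HOXD10 was at 2.05 (1.73 to 2.43), hoxc11b at 1.89, hoxb8b at 1.43, the HOXC13 row ENSDARG00000070353 at 1.36, hoxb6b at 1.29 and HOXA5 at 1.07, the last of these at 0.98 without lane 3. None of these 6 was called in Dx-IONP against control. The remaining one was hoxa13b at 1.93 (1.59 to 2.32), which was high in Dx-IONP. Lower were the HOXB5 row ENSDARG00000013057 at -2.12 (-2.27 to -1.99), hoxa9a at -1.96, HOXD3 at -1.83 and HOXB9 at -1.76. The first 3 of these were low in Dx-IONP, whereas HOXB9 was high in IC. Leaving out single lanes brought in HOXC11 at 1.04 (lane 1), HOXB4 at -1.09 (lane 2) and HOXD12 at 1.15 (lane 3).

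Copies of the same gene differed for some genes, and for most of them between Dx-IONP and IC. Of the 35 different Hox genes (cluster letter and number), 11 had 2 rows, and for 5 of these both rows carry the same symbol, so that they are told apart by identifier only. Estimated counts can be split unevenly between copies where their sequences are alike. How alike the copies are was not measured, so the values of single copies are uncertain. In Dx-IONP against control the folds of the copies lay at least 2-fold apart for 4 of the 11 genes, of which hoxb1 and HOXA11 rest on a row below 1 CPM, and in IC against control for 3. In Dx-IONP against IC it was 9 of 11, again with hoxb1 and HOXA11 among them.

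The HOXB5 rows were nearly equal in control, at 29.4 and 32.6 CPM. In Dx-IONP they stood at 10.4 CPM for ENSDARG00000013057 and 35.0 CPM for ENSDARG00000054030, a difference of log2 folds of -1.59 (counting interval -1.76 to -1.43). In IC the same rows stood at 45.6 and 25.3 CPM, so the first row was the lower one in Dx-IONP and the higher one in IC. For the hoxa13 copies, hoxa13b and hoxa13a were at 2.08 and 2.07 CPM in control and at 6.21 and 1.52 in Dx-IONP, a difference of 2.02 (1.54 to 2.52). For hoxa9, hoxa9b and hoxa9a went apart in IC, at 13.1 and 15.2 CPM against 22.5 and 9.25 in control (-1.50, -1.69 to -1.31). The HOXC13 row ENSDARG00000070353 was lower in IC, whereas its partner ENSDARG00000113877 stood at 3.95 CPM against 2.34 (difference -2.09, -2.45 to -1.74). In IC the folds of the HOXC12 rows differed by -0.0016 (-0.34 to 0.33). Those of HOXC11 and hoxc11b, both called lower, differed by 0.42 (0.08 to 0.76).

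**Figure D4:**
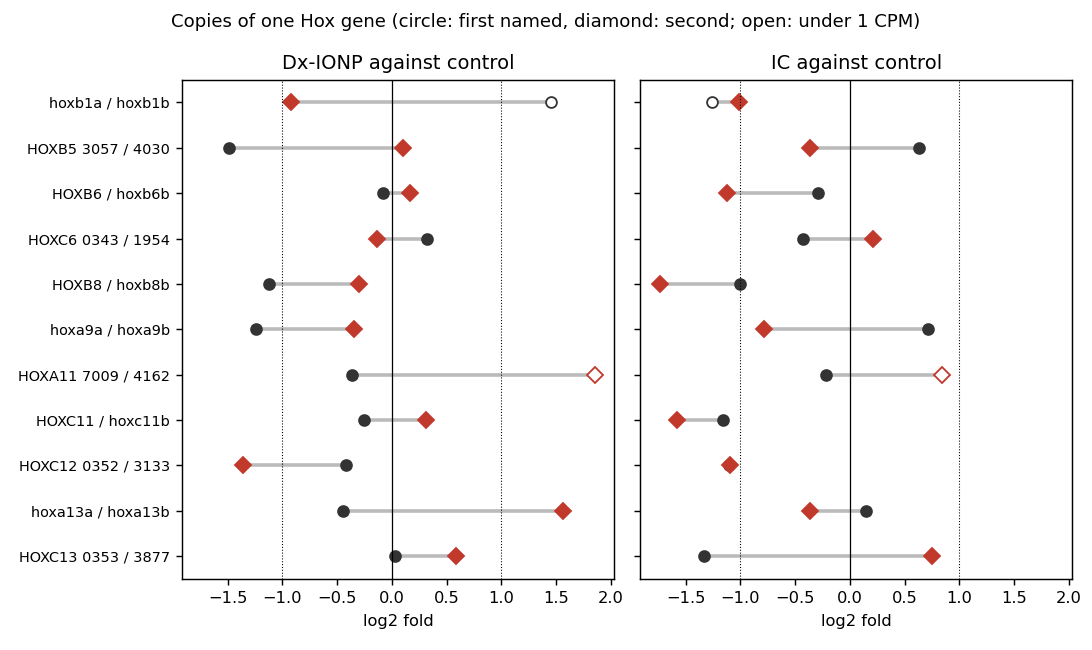
Log2 folds of both copies of the 11 Hox genes that have 2 rows, for Dx-IONP (left) and IC (right) against control; dotted lines mark 2-fold. For symbols held by both rows the last 4 digits of the identifiers are given. In Dx-IONP the HOXB5 and hoxa13 copies lie far apart, and in IC the HOXC13 copies do, while the HOXC12 copies coincide in IC; open points are rows under 1 CPM.

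Genes that act with Hox proteins were compared by lists. Hox proteins bind DNA together with TALE homeodomain cofactors of the Pbx, Meis and Pknox families. Of 9 measured TALE rows 6 were lower in Dx-IONP against control and 0 higher, with a median log2 fold of -1.66, and their summed level was 333.2 CPM against 997.9. That is 66.7% called, against 45.1% of all genes. Examples are pbx1a at 13.6 CPM against 59.8 (-2.13, -2.25 to -2.02), pbx4, the main Pbx partner of Hox proteins in the early zebrafish hindbrain, at 74.5 against 238.3 (-1.68), and meis2b at 88.1 against 291.2 (-1.72). In IC 1 of the 9 was higher and 0 lower (median -0.04), with pbx4 at 0.33, or 11.1% called against 29.2% of all genes. The Hox members had a median of -0.33 in Dx-IONP, and the difference between the lists was not tested.

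Of the Cdx and ParaHox genes, relatives that act upstream of Hox genes or in the gut and brain, 5 passed the filter. Of these 3 were lower in Dx-IONP and 0 higher, or 60% called against 45.1% of all genes. The intestinal gene cdx1b stood at 0.57 CPM in Dx-IONP, 13.2 in control and 54.0 in IC. The log2 fold in Dx-IONP was -4.46 (-5.15 to -3.99), and in IC cdx1b was higher at 2.03 (1.93 to 2.13). Of the 5 genes 1 was higher and 2 lower in IC, or 60% called against 29.2% of all genes. The gut is another place where Cdx genes are read. Of 11 intestine markers 7 were lower and 1 higher in Dx-IONP (72.7% called), with summed levels of 2081 CPM against 1980. Without apoa4b.1, which took most of that sum, the other 10 rows summed to 198.6 CPM against 417.7. In IC 2 of the 11 intestine markers were lower and 0 higher (18.2% called, median -0.31). Their part in the Cdx values was not tested. The even-skipped genes that border Hox clusters were EVX2, at 13.6 CPM in Dx-IONP against 27.4 (log2 fold -1.01), and EVX1, at 3.23 CPM in IC against 8.92 (-1.46) and at 8.93 in Dx-IONP.

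Retinoic acid sets the borders of anterior Hox domains. Of its 20 measured genes 7 were higher and 2 lower in Dx-IONP (median log2 fold 0.14), which is 45% called, near the 45.1% of all genes. In IC 4 were higher and 4 lower (median 0.17), or 40% against 29.2%. In Dx-IONP the degrading enzyme gene CYP26C1 stood at 60.7 CPM against 13.98 (2.12, 2.02 to 2.21) and the synthesis gene ALDH1A2 at 23.6 against 54.5 (-1.20). In IC CYP26B1, also a degrading enzyme gene, stood at 170.8 CPM against 47.7 (1.84, 1.79 to 1.89). The other degrading enzyme genes did not follow it there, with CYP26A1 lower at 5.64 CPM against 11.8 (-1.06) and CYP26C1 not called at 0.68. Of the DHRS3 rows 1 was lower in IC at -1.85 and the other, not called, was at 0.16. The retinoic acid carrier CRABP1 had 1 of its rows at -1.94 in IC and the other, not called, at -0.63. The CRABP2 rows went the other way in IC, at 1.71 (240.5 CPM against 73.7) and, not called, at 0.98.

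Of 6 measured rows of hindbrain segment regulators 3 were lower and 1 higher in Dx-IONP, or 66.7% called against 45.1% of all genes. In IC 1 was lower and 1 higher, or 33.3% against 29.2%. Polycomb genes, whose products keep Hox genes silent outside their domains, had 3 lower and 3 higher of 13 in Dx-IONP (median -0.70), and 2 lower and 0 higher in IC (median 0.28). These are 46.2% and 15.4% called, against 45.1% and 29.2% of all genes. Among them EED was at -1.11 in Dx-IONP. There 1 JARID2 row was at 2.48 (27.2 CPM against 4.83 in control) and the other, not called, at -0.25 (20.0 against 23.8). Trithorax genes and demethylases, which keep Hox genes active, were called for 0 of 10 in Dx-IONP (median -0.04). In IC 1 of 10 was lower, with ASH2L at -1.39. The shares called were 0% and 10%, against 45.1% and 29.2% of all genes.

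The medians of the neuron and fin marker lists lay farther from control in Dx-IONP than the Hox medians. That of the skeletal muscle markers was 0.0030. Of 15 spinal cord and hindbrain neuron markers 13 were lower in Dx-IONP and 0 higher (median log2 fold -1.74), with a summed level of 188.9 CPM against 655.4. Among them GATA2 was at -3.42, GATA3 at -3.32 and an ISL2 row at -2.35. Of 9 pan-neuronal markers 8 were lower and 1 higher (median -3.62), with summed levels of 377.6 CPM against 2672. Homeobox genes of the forebrain and midbrain, which lie in front of the Hox domain, had 11 lower and 2 higher of 21 (median -1.03). Fin fold and paired fin genes, the tissue in which group 13 genes are read, were higher in 7 of 14 cases and lower in 0 (median 1.05), with SALL4 at 1.99, msx2b at 1.37 and the actinotrichia gene and1 at 1.21. The shares called in Dx-IONP were 86.7% (spinal cord and hindbrain), 100% (pan-neuronal), 61.9% (forebrain and midbrain) and 50% (fin), against 45.1% of all genes. In the same library hoxa13b was higher, hoxa9a lower and hoxa13a not called (-0.44), and HOXD3 and 1 of the HOXB5 rows were lower with the other HOXB5 row at 0.10. Their part in the Hox values was not tested.

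In IC the pan-neuronal markers were lower for 1 of 9 (median 0.32), the spinal cord and hindbrain markers for 7 of 15 (median -0.80) and the forebrain and midbrain genes for 6 of 21 (median -0.65), with 0 higher in each list. The shares called were 11.1%, 46.7% and 28.6% in this order, against 29.2% of all genes. Among the spinal markers en1b was at -1.68, OLIG2 at -1.50 and GATA2 at -1.32. The fin list held 4 lower and 0 higher among its 14 in IC (28.6% called, near the 29.2% of all genes, median -0.06). DLX5, lower at -1.03, is counted in both this list and the forebrain and midbrain list. Skeletal muscle markers summed to 48312 CPM in the control library, 74332 in that of Dx-IONP and 79240 in that of IC. Of the 12 measured, 4 were lower and 2 higher in IC (50% called, median -0.72). In Dx-IONP 2 were lower and 0 higher (16.7% called, against 45.1% of all genes, median 0.0030). The part of these markers in the Hox values of IC was not tested.

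**Figure D5:**
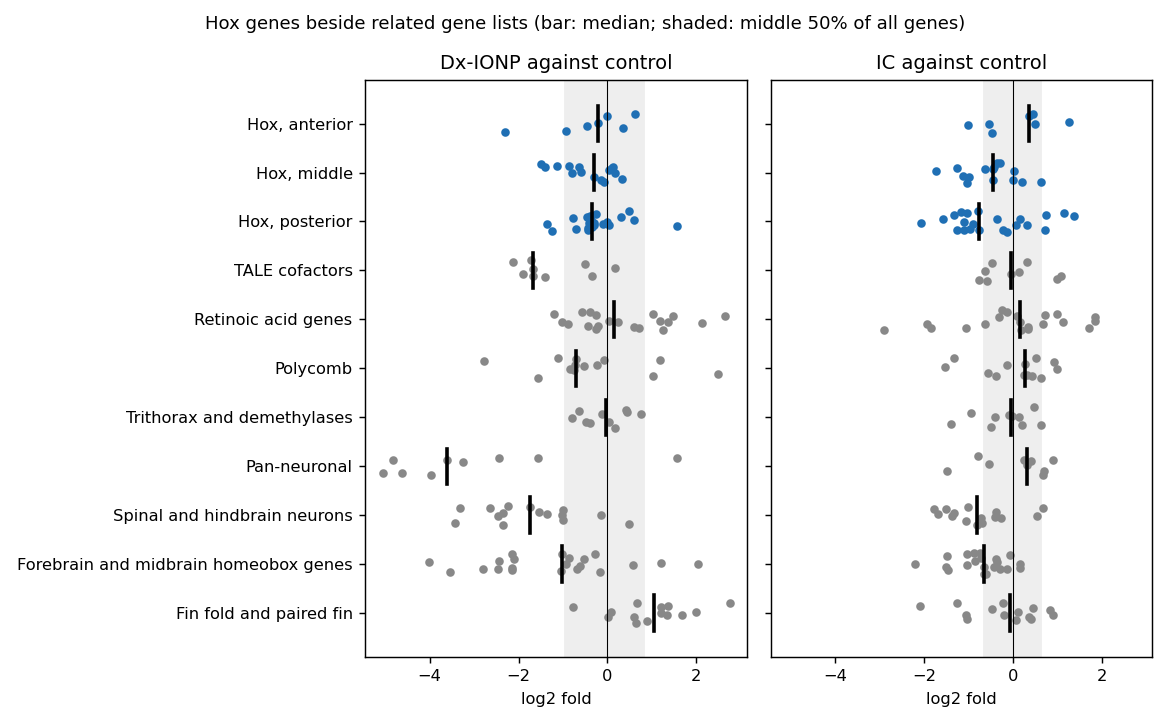
Log2 folds against control of the Hox zones (blue) and of lists of related genes and markers (grey), for Dx-IONP (left) and IC (right). Each point is a gene past the filter, bars are medians, and the shaded band holds the middle 50% of all 16807 genes. In Dx-IONP the Hox medians (-0.20, -0.30 and -0.36) lie within the band while the neuron and TALE cofactor medians lie below it.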

How the data were processed

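Values in the deposited table are estimated counts, whole and unnormalized, for each gene in each lane; the authors made them with Salmon 1.6.0, which the submitters' processing notes name beside DESeq2 1.34.0, R 4.1.2 and GRCz11. How transcripts were joined to genes and whether strand was used is not given in the sources used here. Lanes were summed per library, giving 48283541 to 84043873 reads, and 100 reads were worth 1.07 CPM in control, 1.97 CPM in IC and 2.11 CPM in Dx-IONP. Between lanes of one library the Hox members had a median chi-square per degree of freedom of 0.96 (control), 0.70 (IC) and 0.91 (Dx-IONP), where counting alone gives 0.79. It was above the 5% limit for 3, 5 and 3 of 44 members, with maxima of 4.86 (HOXD3, control), 5.21 (HOXD12, IC) and 7.53 (hoxc3a, Dx-IONP), so that counting intervals are too narrow for some. TMM factors came from edgeR 4.0.16 in R 4.3.3, and all other values from Python 3.11.15 with scipy 1.17.1. Of the 19983 genes, 16807 reached 1 CPM in 1 library or more and were compared, with exact Clopper-Pearson intervals of each ratio and a prior count of 2 in log2 folds. The comparison step was tested on simulated counts with counting error only and with the library sizes given. That test did not cover normalization or variation between libraries.

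Symbols came from a name table, and 46 of its 48 Hox symbols had a row; the others are not analysed here. The RefSeq table of the assembly GRCz12tu served for overlapping neighbours only. Where a list entry had no row of its own, the row or rows with its name without the copy letter were taken. Named by rule were members called in any comparison with at least 2 CPM, the highest member of each zone and library, their copies, and from each list up to 4 called genes with at least 10 CPM. Other genes named (such as EVX1, HOXB7 and HOXC8) were chosen after their values were seen. Members and lists were chosen with earlier results of these data known. Single values of some genes, which stay in the counts and medians, are not reported here.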

Additional observations from a re-analysis of the deposited data

How the results depend on the processing

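No paired analysis was possible because each condition is 1 library, same-numbered samples share only a lane, and no test was made. Scaled to total reads, 12 members were lower in Dx-IONP against control, the anterior, middle and posterior medians were -0.57, -0.67 and -0.72, and against IC 5 were higher and 6 lower and the medians were -0.93 (anterior), -0.20 (middle) and -0.033 (posterior). At 1.5-fold, 3 members were higher and 13 lower in Dx-IONP against control, 6 higher and 19 lower in IC, and 13 higher and 12 lower in Dx-IONP against IC, where 64.2%, 54.0% and 69.2% of all genes were called. With copies summed (35 genes), 0 were higher and 3 lower in Dx-IONP against control (middle median -0.60), 9 lower in IC, and 3 higher and 2 lower in Dx-IONP against IC. At 10 CPM (25 members), the counts were 0 higher in Dx-IONP against control, 7 lower in IC and 3 higher in Dx-IONP against IC. Of all 11648 genes at this level, 2539, 1633 and 2915 were called in the same directions, and 43.1%, 29.0% and 49.7% in either direction. The medians there were -0.62 (middle, Dx-IONP), -0.47 and -0.50 (anterior and posterior, IC) and -0.15 (middle, Dx-IONP against IC). With no filter, 3 members were higher in Dx-IONP and the anterior median in IC was -0.051. With group 4 counted as anterior that median was -0.45. Without the rows matched by letter and number to an overlapping RefSeq gene, an alternative chosen after seeing the data, 27 were left. Then 3 were lower in Dx-IONP against control and 2 against IC, and medians were -0.60 (middle, Dx-IONP), 0.48 and -1.0 (anterior and middle, IC) and -0.12 (middle, Dx-IONP against IC). Leaving out 1 lane of every library gave 6 lower and 1 higher each time in Dx-IONP against control, 12 to 14 lower and 2 to 3 higher in IC, and 4 to 5 lower and 7 to 8 higher in Dx-IONP against IC. The shares of all genes called, in the same order of comparisons, were 44.8% to 45.0%, 29.2% to 29.5% and 50.4% to 50.7% without 1 lane. They were 45.4%, 29.3% and 49.7% scaled to total reads, and 44.1%, 29.0% and 48.2% with no filter. With copies summed or overlapping rows left out they were 45.1%, 29.2% and 50.6%. No called value of a named gene changed sign, while uncalled ones did 9 times when scaled to total reads and 7 times under other settings. The cause of these moves was not tested, beyond the fewer members some settings leave.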
